A study of Homo sapiens with 26 samples.

Results

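The response of BxPC3 cells to induction of the HNF4A isoform labelled P2-a8 was described across all genes by poly(A) RNA sequencing. BxPC3 is an established cell line from a human pancreatic ductal adenocarcinoma. The libraries were chosen by their cell line and genotype labels: 2 libraries labelled P2-a8 and 2 control libraries labelled NC, whose titles read EV (empty vector), which makes 4 of the 26 libraries of the series. Both groups received doxycycline at 500 ng/mL, so the drug is shared and the construct differs. Doxycycline switches on an inducible construct. Set beside them were 2 BxPC3 libraries that expressed the isoform labelled P1-a2 at the same 500 ng/mL, and 4 libraries of Panc10.05, another pancreatic cancer line. In Panc10.05, P2-a8 was induced at 12.5 ng/mL and the NC control, by its titles a GFP construct, received 25 ng/mL. The labels give neither the time of induction, the promoter of the construct, nor whether each line was a clone or a pool. They do not say that replicates came from separate cultures, so the p-values measure the spread between these libraries, which may be technical.

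HNF4A encodes HNF4α, a nuclear receptor that binds DNA as a homodimer and keeps gene programmes of the liver, intestine, kidney and pancreas active. Its gene has a pair of promoters, P1 and P2. Isoforms from P2 lack the first activation domain that isoforms from P1 carry, and P2 isoforms are the usual ones in adult pancreas and stomach, while both kinds occur in intestine. Known targets of HNF4α include apolipoproteins, plasma proteins made by the liver, brush border proteins and transporters.

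The 4 libraries held from 26369154 to 36295663 counts, and mitochondrially encoded genes took between 5.70% and 6.42% of the counts across all BxPC3 libraries. On the first principal component of the 6 BxPC3 libraries, which held 63.1% of the variance, the P2-a8 libraries lay at -1.40 and -4.59, between the NC libraries at 55.0 and 52.1 and the P1-a2 libraries at -47.2 and -53.9. SMAD4 and CDKN2A, which are known to be deleted in BxPC3, had 0 counts in all 4 libraries. The 10 epithelial markers summed to 9566 and 9747 CPM (the count scaled to the library's size) with P2-a8 and to 8620 and 8358 CPM in NC. Of these, KRT8, EPCAM, KRT18, CDH1 and KRT19 rose, and GRHL2 and ESRP1 fell, at an adjusted p under 0.05. The 10 fibroblast markers summed to 22.2 and 21.3 CPM with P2-a8 and to 16.6 and 17.4 CPM in NC, with LUM past the threshold (an adjusted p under 0.05), POSTN at 0 counts and 6 under 1 CPM in every library. The 10 immune markers summed to 7.55 and 8.61 CPM with P2-a8 and to 3.64 and 4.37 CPM in NC, with CD79A and CD163 past the threshold, and PTPRC and TYROBP at 0 counts in both P2-a8 libraries. Their part in the results was not tested. In bulk RNA, more cells that express a gene and more RNA of it per cell cannot be told apart.

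HNF4A itself was measured at 12.6 and 14.2 CPM in the P2-a8 libraries and at 1.08 and 0.464 CPM in the NC libraries. Both P2-a8 libraries lay above both controls, and the log2 fold change was 4.19 with an SE of 0.25 (adjusted p = 4.34e-06). The fold rested on low control values: it was 4.83 without NC replicate 1 and 3.62 without NC replicate 2. The P1-a2 libraries held 9.76 and 11.6 CPM of HNF4A, and the difference between P2-a8 and P1-a2 was 0.33 (SE 0.17, adjusted p = 0.217). Counts per gene do not separate the isoforms, nor transcripts of the construct from those of the cell's own gene. HNF4G, the related receptor that shares HNF4α's binding sites, stood at 5.03 and 5.14 CPM with P2-a8 and at 7.66 and 6.58 CPM in NC (log2 fold change -0.48, SE 0.17, adjusted p = 0.136).

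Promoters were searched for the DNA element that HNF4α binds. The HNF4-specific element was searched as CAAAGTCCA on both strands, from 250 bases before to 50 bases after each RefSeq transcription start (GRCh38.p14). A window was at hand for 11888 of the genes tested, and 0.513% of these genes held the element. Among genes that rose with P2-a8 the share was 2.55% (15 of 588 with a window), and among genes that fell it was 0 of 316. CAAAGGTCA, an element that other nuclear receptors share, was held by 0.429% of genes tested, by 1.361% of those that rose (8 of 588) and by 1.58% of those that fell (5 of 316). These shares are descriptions without a test, and a match is not a bound site. The 100 bases before a RefSeq start are shown for 5 genes that rose and hold the element there. They belong to the gene lists below or to the largest rises. Of the 12 largest rises, 8 had a window, and SLCO2B1 was the only 1 of them to hold either element. Of the 12 largest falls, 7 had a window and 1 held either element. The element is in capitals, and each sequence is printed 5′ to 3′ along the gene's own strand. TGGACTTTG is the same element read on the other strand.
SLCO2B1, chr11:75159732-75159831, plus strand: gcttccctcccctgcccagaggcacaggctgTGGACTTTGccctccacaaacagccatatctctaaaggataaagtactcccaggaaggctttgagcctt
MUC13, chr3:124934752-124934851, minus strand: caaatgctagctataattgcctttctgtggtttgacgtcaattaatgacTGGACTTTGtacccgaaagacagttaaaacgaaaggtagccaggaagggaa
MYO1A, chr12:57050130-57050229, minus strand: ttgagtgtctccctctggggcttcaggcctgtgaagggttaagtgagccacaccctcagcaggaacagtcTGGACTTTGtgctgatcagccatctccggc
PDZK1, chr1:145707369-145707468, minus strand: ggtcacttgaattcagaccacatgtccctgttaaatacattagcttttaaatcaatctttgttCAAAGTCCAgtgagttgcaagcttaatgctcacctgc
TREH, chr11:118679651-118679750, minus strand: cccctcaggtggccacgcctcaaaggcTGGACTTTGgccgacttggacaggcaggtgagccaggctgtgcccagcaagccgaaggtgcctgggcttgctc
The first base of the element lay 69 bases before the RefSeq start used for SLCO2B1, 51 for MUC13, 30 for MYO1A, 37 for PDZK1 and 73 for TREH. Distances were counted along each gene's own strand, and a gene can have other starts. For another RefSeq start of PDZK1 the element lay 5 bases before it.

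Of 17635 genes tested, 1232 (6.99%) differed between P2-a8 and NC at an adjusted p under 0.05 in edgeR's quasi-likelihood test. P2-a8 raised 758 genes (4.3%) and lowered 474 (2.69%). The median size of their log2 fold change was 0.56, and the median over all genes tested was 0.01. A change of at least 1 on the log2 scale was reached by 275 of the genes that rose (1.56% of genes tested) and by 89 of those that fell (0.505%). Of the 1232 genes, 53 had no count in either NC library. At an unadjusted p under 0.05, 3647 genes differed. The count of 1232 fell to 653 without NC replicate 1, to 495 without NC replicate 2 and to 788 without P2-a8 replicate 2. With library sizes scaled by total counts alone, 659 genes rose and 614 fell.

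**Figure D1:**
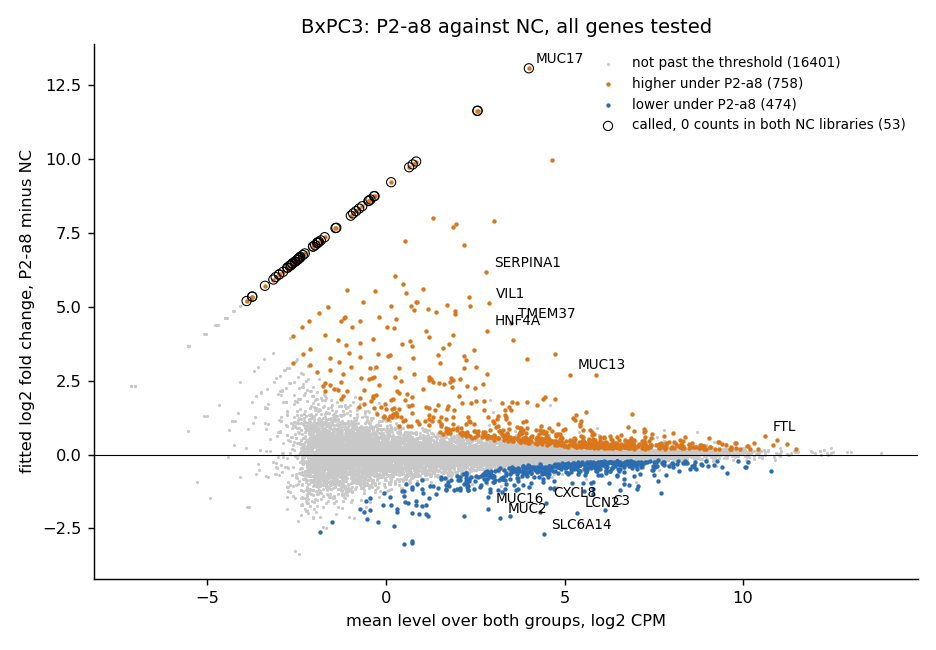
Log2 fold change of P2-a8 against NC (vertical axis) against the mean level in log2 CPM (horizontal axis) for the genes tested in BxPC3 that had a count in either group, 1 point a gene, with genes past the threshold coloured by direction. Of the 758 genes that rose, 275 lie at 1 or more, and of the 474 that fell, 89 lie at -1 or less; fitted values of genes with no count in NC depend on the prior count.

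The 12 largest rises were taken among genes with a mean of at least 5 CPM and no overlap between the groups. MUC17, a membrane mucin of the enterocyte surface, had 29.5 and 34.5 CPM with P2-a8 and no count in either NC library, which makes it at least 330.9-fold higher against a floor of 3 counts per library (adjusted p = 1.97e-04). APOA4, an apolipoprotein of chylomicrons, had 12.5 and 11.2 CPM against 0 and 0 (at least 122.5-fold higher, adjusted p = 5.76e-08). PRAP1, a lipid-binding protein secreted by the intestine, had 11.4 and 12.1 CPM against 0 and 0 (at least 121.6-fold higher, adjusted p = 1.11e-07). All 3 went from no detected transcript to a clear level in both libraries.

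ANPEP, the brush border aminopeptidase N, had 50.99 and 49.4 CPM with P2-a8 against 0 and 0.0819 CPM, a ratio of 1063 with a 95% counting interval of 363.4 to 5157 (adjusted p = 5.76e-08). SLCO2B1, an uptake transporter for organic anions, had 16.4 and 15.7 CPM against 0.112 and 0.0273 CPM (log2 fold change 7.91, SE 0.26, adjusted p = 3.55e-08), a fold that rests on 4 counts in NC and was 9.01 without NC replicate 1 and 7.11 without NC replicate 2. SERPINA1, the plasma protease inhibitor alpha-1 antitrypsin, had 14.3 and 13.5 CPM against 0.223 and 0.164 CPM (log2 fold change 6.17, SE 0.22, adjusted p = 4.32e-08). These 3 were near the floor in NC, and the gap between groups was far wider than that between replicates.

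VIL1, the microvillus actin bundler villin, had 11.9 and 16.8 CPM against 0.521 and 0.328 CPM (log2 fold change 5.11, SE 0.31). MUC3A, another membrane mucin, had 10.7 and 8.94 CPM against 0.298 and 0.301 CPM (5.02, SE 0.21). TMEM37 had 22.97 and 20.3 CPM against 0.930 and 1.04 CPM (4.44, SE 0.14). METTL7B, a liver methyltransferase, rose by 3.88 (SE 0.16) and AKR7A3, an aldo-keto reductase that detoxifies aldehydes, by 3.52 (SE 0.20). HNF4A completes the 12 largest rises. MUC17, PRAP1, SLCO2B1, VIL1, METTL7B and HNF4A overlap other annotated genes, and MUC3A has near-identical copies, so their counts could be split or shared.

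**Figure D2:**
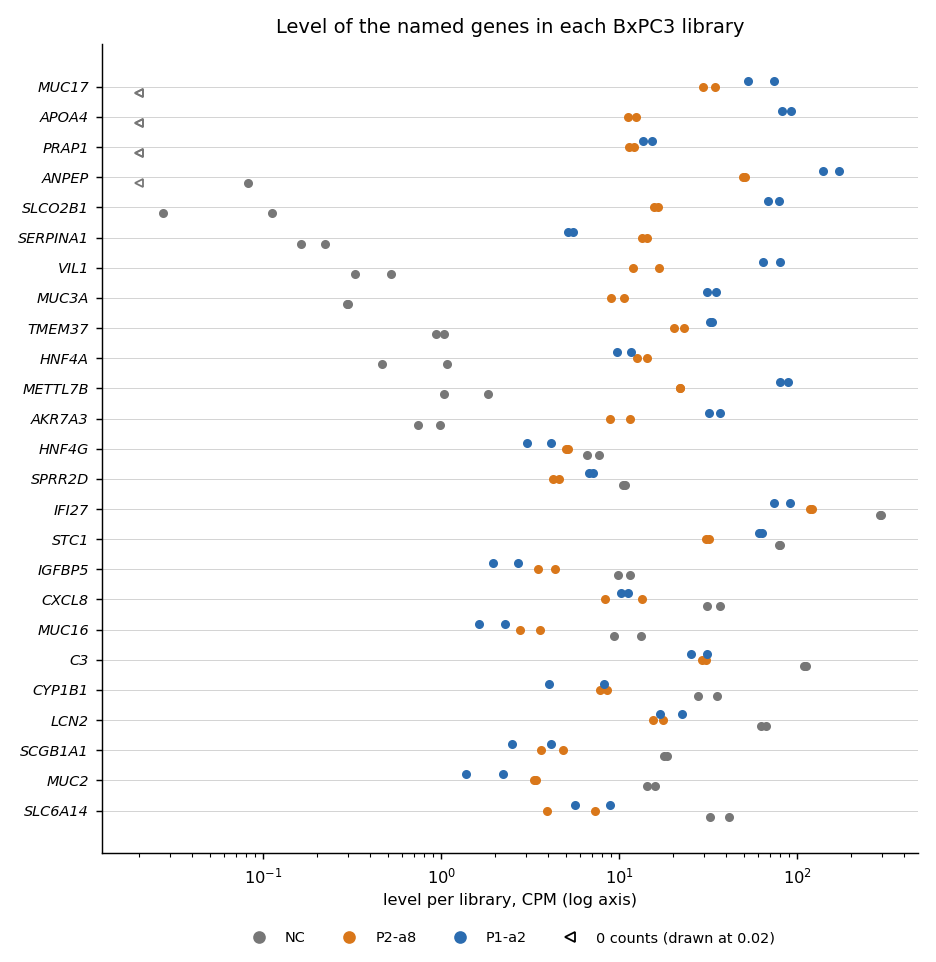
Level of the 24 genes named for the size of their change (12 up, 12 down), and of HNF4G, in each BxPC3 library, in CPM on a log axis, 1 point a library. The P2-a8 points of each of the 24 lie on 1 side of both NC points, since the rule for naming them asked for that. HNF4G was shown whatever its change and did not pass the threshold.

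The gene lists were chosen with earlier results of these data known, so their shares are descriptions without a test. The filter on low counts keeps a gene with enough counts in any group, so members silent in NC entered through P2-a8 or P1-a2 alone. Members low in every group dropped out. Both raise the shares that rose and the medians of lists with many silent members. Among genes that build the brush border, 27 were listed and 25 passed the filter on low counts. Of these 11 rose, 0 fell and 14 did not pass, beside 4.3% and 2.69% of all genes tested, and the median log2 fold change was 0.24. MYO1A, the motor that ties the microvillus core to the membrane, had 1.80 and 2.02 CPM with P2-a8 against 0.149 and 0.219 CPM in NC (3.31, SE 0.32, adjusted p = 9.36e-05). BAIAP2L2, which shapes microvillus membranes, had 3.06 and 3.64 CPM against 0.0744 and 0.137 CPM (4.88, SE 0.43). PDZK1, a scaffold for brush border transporters whose promoter is shown above, had 0.686 and 1.23 CPM against 0.260 and 0.246 CPM (1.90, SE 0.45, adjusted p = 0.0263). The PDZK1 call was lost without P2-a8 replicate 2 (0.159), NC replicate 1 (0.105) or NC replicate 2 (0.179). Without NC replicate 1, 5 members of the list rose. Most of the members that moved were at low levels.

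Digestive and absorptive surface proteins followed. Of 47 members, 25 were tested, 13 rose and 2 fell, beside 4.3% and 2.69% of all genes, with a median of 1.68 that was the same with genes absent from NC set at their lower bounds. The other 22 did not pass the filter on low counts, and the share and median leave them out. SLC15A1, the intestinal peptide transporter, had 6.55 and 8.11 CPM with P2-a8 against 0.149 and 0.355 CPM in NC (4.76, SE 0.29, adjusted p = 5.11e-06), and its fold was 5.57 without NC replicate 2. HHLA2, an immune checkpoint ligand of the B7 family, had 3.78 and 4.23 CPM against 0.0744 and 0.0819 CPM (5.60, SE 0.36). TREH, the brush border trehalase with the element shown above, had 0.543 and 0.612 CPM against 0.0372 and 0.0273 CPM, a ratio of 18.3 with a counting interval of 4.74 to 156.5. The 2 that fell were the adhesion molecules CEACAM5 (95.7 and 78.6 CPM against 179 and 184.2 CPM, -1.06, SE 0.12) and CEACAM6 (583 and 586 CPM against 781.5 and 779.8 CPM, -0.42, SE 0.05). Leaving out any 1 library left at least 9 members that rose.

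Of 45 apolipoproteins and genes that load them with triglyceride, 34 were tested, 12 rose and 0 fell, beside 4.3% and 2.69% of all genes, and the median was 0.41. APOB, the structural protein of chylomicrons and very low density lipoprotein, had 3.60 and 2.66 CPM with P2-a8 and no count in NC (at least 32.4-fold higher, adjusted p = 1.00e-05). APOA1, the main protein of high density lipoprotein, had 7.55 and 6.98 CPM against 0 and 0.0546 CPM, a ratio of 231 (counting interval 63.6 to 1913). MOGAT3, an acyltransferase that makes diacylglycerol, had 8.12 and 9.86 CPM against 0.149 and 0 CPM (7.07, SE 0.51). That fold rests on 4 counts in NC and was 5.87 without NC replicate 2, while without NC replicate 1 the control has no count. MTTP, which loads lipid onto APOB, rose by 2.71 (SE 0.28), and DGAT2, which closes triglyceride synthesis, rose from 13.01 and 9.97 CPM to 39.8 and 44.2 CPM (1.88, SE 0.13, adjusted p = 3.71e-05). At least 10 members rose whichever library was left out.

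Of 55 liver plasma protein genes, 15 were tested, 8 rose and 0 fell, beside 4.3% and 2.69% of all genes (median 1.38). The other 40 did not pass the filter on low counts, and the share and median leave them out. Beside SERPINA1, AGT, which encodes angiotensinogen, had 5.01 and 4.84 CPM with P2-a8 against 0 and 0.0273 CPM, a ratio of 312.7 (counting interval 55.7 to 12390). PROS1, the anticoagulant protein S, had 6.15 and 5.97 CPM against 1.08 and 0.956 CPM (2.58, SE 0.17, adjusted p = 5.84e-06). F5, coagulation factor V, rose by 1.73 (SE 0.23). The hepatocyte markers PCK1, SERPINA1 and ASGR1 were past the threshold, with the 10 markers summing to 46.8 and 51.3 CPM with P2-a8 and to 32.8 and 31.96 CPM in NC. Of the defining markers of hepatocytes, TTR and APOH had 0 counts in all 4 libraries, and ALB had 0 counts in both P2-a8 libraries and 1 and 2 counts in NC.

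Of 15 complement genes tested (27 listed), 0 rose and 4 fell, beside 4.3% and 2.69% of all genes. C3, the central complement component, had 30.7 and 29.1 CPM with P2-a8 against 112 and 109 CPM in NC (-1.88, SE 0.09, adjusted p = 3.11e-07). C1S, a protease of the classical pathway, had 4.63 and 4.65 CPM against 9.26 and 11.7 CPM (-1.18, SE 0.15). C1R and CD55 also fell, by 0.99 (SE 0.17) and 0.38 (SE 0.06) on the log2 scale, and both were lost without NC replicate 2 (adjusted p = 0.0565 for C1R and 0.0505 for CD55).

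Drug and nutrient handling genes moved in both directions. Beside the list counts given here, 4.3% of all genes tested rose and 2.69% fell. Of 37 cytochrome P450 and conjugation genes tested (52 listed), 8 rose and 2 fell. CYP1A2, a drug-oxidising enzyme of the liver with close paralogs, had 8.24 and 7.38 CPM with P2-a8 against 0.0744 and 0 CPM, a ratio of 248.4 (counting interval 68.4 to 2056). SULT1C2, a sulfotransferase, rose by 3.27 (SE 0.31), or by 3.996 without NC replicate 2. Among 27 SLCO and ABC transporters tested (34 listed), 4 rose and 3 fell. ABCG2, a drug efflux pump, had 9.87 and 11.2 CPM against 2.68 and 3.31 CPM (1.80, SE 0.14, adjusted p = 1.39e-05), and ABCC6, another ABC transporter, rose by 2.54 (SE 0.20). NR1I2, the xenobiotic sensor PXR that controls many of these genes in liver, had 8.87 and 10.6 CPM against 0.335 and 0.164 CPM (5.34, SE 0.30, adjusted p = 2.12e-06). In all, 3 of 26 endoderm transcription factors tested rose and 2 fell.

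Among 31 genes of retinoid and iron handling tested (36 listed), 6 rose and 5 fell, beside 4.3% and 2.69% of all genes. SLC40A1, the iron exporter ferroportin, had 50.8 and 46.8 CPM with P2-a8 against 4.91 and 4.37 CPM in NC (3.40, SE 0.12, adjusted p = 4.32e-08). HMOX1, the heme-degrading oxygenase that releases iron, had 8.87 and 9.58 CPM against 1.97 and 1.89 CPM (2.26, SE 0.15). FTL, the ferritin light chain, had 1861 and 1946 CPM against 1220 and 1255 CPM (0.62, SE 0.05). The siderophore-binding protein LCN2 fell, as given below.

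Smaller and less steady rises were seen in metabolic lists, set here beside 4.3% of all genes that rose and 2.69% that fell. Of 33 fatty acid oxidation genes tested, 9 rose and 0 fell, but none passed without NC replicate 2. Of 35 cholesterol and fatty acid synthesis genes, 6 rose and 0 fell, with 1 left without P2-a8 replicate 2 or without NC replicate 2. TM7SF2, a sterol reductase, had 24.8 and 28.0 CPM against 15.7 and 15.9 CPM (0.74, SE 0.10, adjusted p = 0.00120). Among 31 genes of glycolysis and gluconeogenesis, 5 rose and 1 fell. PCK1, the first enzyme of gluconeogenesis, had 4.06 and 3.12 CPM against no count in NC (at least 37.1-fold higher), and FBP1, a later enzyme of the same route, rose by 2.28 (SE 0.27). Of 29 hypoxia response genes tested, 9 rose and 1 fell, with at least 5 rises whichever library was left out. CA9 and CA12, surface carbonic anhydrases, rose by 4.19 (SE 0.32) and 1.38 (SE 0.10), and CA12 reached 161.6 and 177.9 CPM against 59.8 and 70.5 CPM.

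**Figure D3:**
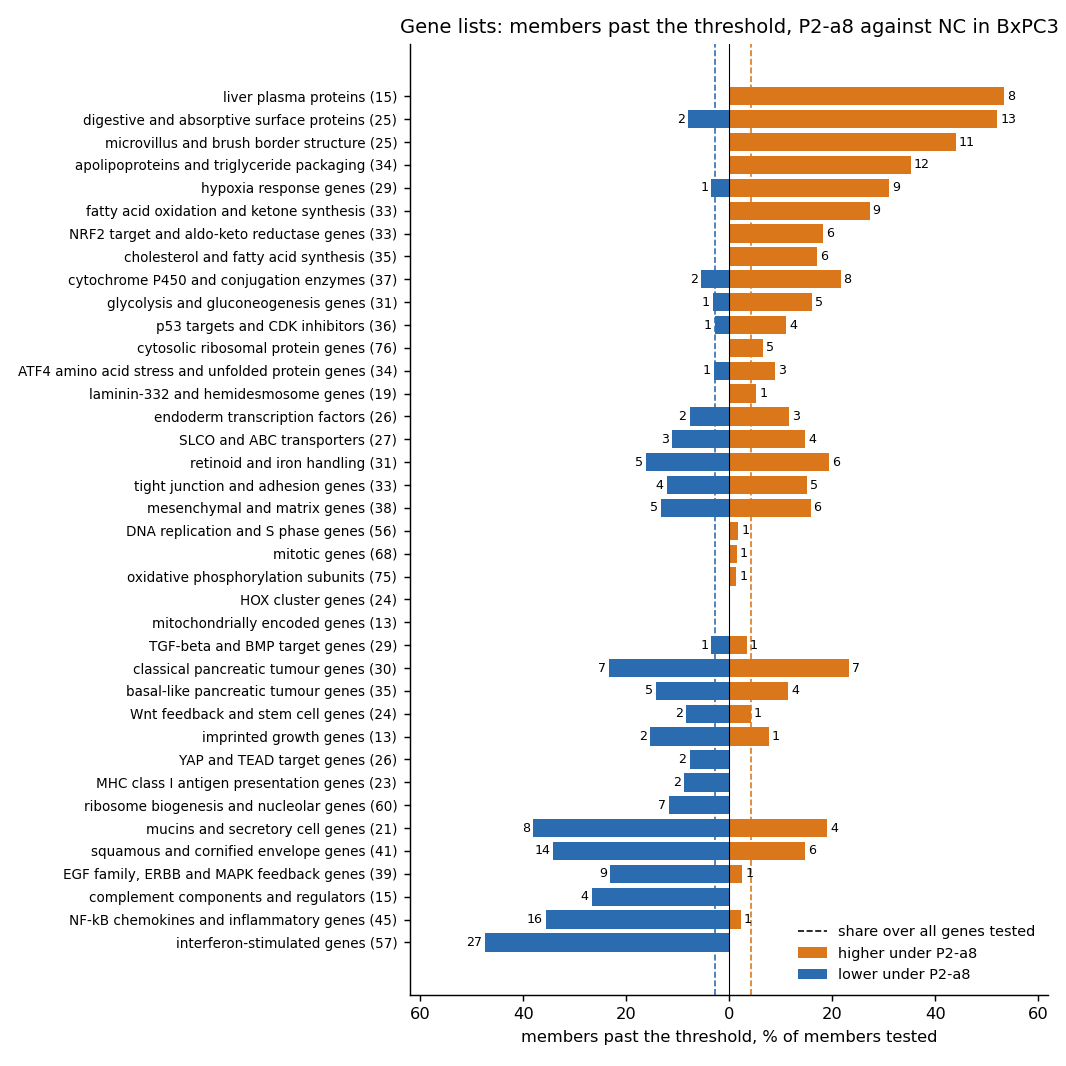
Members of each gene list that rose or fell with P2-a8 against NC, as a percentage of the members tested (horizontal axis), with the share of all genes tested for each direction. Digestive and absorptive, liver plasma and brush border genes have the highest shares that rose, and interferon-stimulated genes and mucins are among the highest that fell. Members low in every group were not tested and are left out, which raises the shares that rose.

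The 12 largest falls were named by the same rule. MUC2, the gel-forming intestinal mucin, had 3.40 and 3.34 CPM with P2-a8 against 14.3 and 15.8 CPM in NC (-2.16, SE 0.18, adjusted p = 2.44e-05). SCGB1A1, a secretoglobin of airway secretory cells, had 4.86 and 3.61 CPM against 18.4 and 17.8 CPM (-2.09, SE 0.20). LCN2, lipocalin 2, had 17.7 and 15.5 CPM against 67.0 and 62.7 CPM (-1.96, SE 0.12, adjusted p = 8.56e-06). In each of these the controls held several times the P2-a8 level in both libraries.

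MUC16, the mucin that carries the CA125 antigen, had 3.60 and 2.76 CPM against 9.30 and 13.3 CPM (-1.83, SE 0.22). IGFBP5, which binds insulin-like growth factors, had 4.35 and 3.49 CPM against 11.5 and 9.86 CPM (-1.44, SE 0.18). STC1, the secreted glycoprotein stanniocalcin 1, had 31.9 and 30.7 CPM against 79.8 and 79.2 CPM (-1.34, SE 0.06, adjusted p = 2.62e-07). The amino acid transporter gene SLC6A14 had the largest fall, at 7.35 and 3.95 CPM against 41.5 and 32.5 CPM (-2.70, SE 0.36, adjusted p = 0.0177), but its p rose to 0.0795 without NC replicate 1 and 0.0692 without NC replicate 2, and was 0.0805 with no filter on low counts. CYP1B1, a cytochrome P450 that oxidises estrogens, was at 7.84 and 8.51 CPM against 27.6 and 35.3 CPM (-1.95, SE 0.31, adjusted p = 0.0241). The CYP1B1 call was lost without any 1 of the 4 libraries of these groups, with an adjusted p of 0.252 without P2-a8 replicate 2, 0.246 without P2-a8 replicate 1, 0.101 without NC replicate 2 and 0.0685 without NC replicate 1. C3, CXCL8, IFI27 and SPRR2D complete the 12 largest falls.

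Mucins moved in both directions. Of 21 mucin and secretory genes tested (33 listed), 4 rose and 8 fell, beside 4.3% and 2.69% of all genes, with a median of -0.63. Those that rose included the membrane mucins MUC17, MUC3A and MUC13, the last with 60.4 and 63.5 CPM against 10.5 and 8.63 CPM (2.704, SE 0.09, adjusted p = 4.04e-08). Those that fell included the gel-forming mucins MUC2 and MUC5AC, the latter at 0.400 and 0.337 CPM against 1.93 and 2.02 CPM (-2.41, SE 0.38), and the membrane mucins MUC16, MUC1 (-1.17, SE 0.10) and MUC4 (-1.17, SE 0.10). MUC4 had 31.1 and 36.9 CPM against 69.2 and 83.2 CPM. Membrane mucins were found on both sides.

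Of 59 interferon-stimulated genes listed, 57 were tested, 0 rose and 27 fell, beside 2.69% of all genes tested, and the median was -0.43. In 44 of the 57 both P2-a8 libraries lay below both NC libraries, and in none above, beside 22.7% and 27.7% of all genes. IFI27 had 117.1 and 121.3 CPM with P2-a8 against 290.2 and 296.4 CPM in NC (-1.30, SE 0.08, adjusted p = 8.05e-06). IFI6, an antiviral and survival protein, had 65.8 and 69.5 CPM against 134.9 and 135.4 CPM (-0.999, SE 0.07). OAS3, an antiviral sensor of double-stranded RNA, had 92.5 and 92.1 CPM against 148 and 159.8 CPM (-0.74, SE 0.06). The number that fell was 15 without NC replicate 2 and 35 with scaling by total counts alone. Of 23 genes of MHC class I antigen presentation, 0 rose and 2 fell, beside 4.3% and 2.69% of all genes. HLA-B fell by 0.43 (SE 0.06) and its activator NLRC5 by 0.83 (SE 0.12).

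Of 51 NF-kB chemokines and inflammatory genes, 45 were tested, 1 rose and 16 fell, beside 4.3% and 2.69% of all genes (median -0.32), and at least 11 fell whichever library was left out. CXCL8, the neutrophil chemokine interleukin 8, had 13.4 and 8.33 CPM against 36.6 and 31.3 CPM (-1.64, SE 0.20, adjusted p = 0.00257). CXCL5, a related chemokine, fell by 2.07 (SE 0.27). IL36G, an interleukin of squamous epithelium, had 0.229 and 0.398 CPM against 2.31 and 2.76 CPM (-3.02, SE 0.38). The gene that rose was TNFSF10, the death ligand TRAIL, with 75.1 and 73.8 CPM against 51.9 and 52.99 CPM (0.51, SE 0.06), named here after its value was seen.

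Squamous and cornified envelope genes gave 14 of 41 that fell and 6 that rose, beside 2.69% and 4.3% of all genes (49 listed, median -0.35). SPRR2D, a small proline-rich envelope protein with near-identical paralogs, had 4.58 and 4.26 CPM against 10.5 and 10.7 CPM (-1.26, SE 0.13). The kallikrein proteases KLK7 (6.66 and 6.06 CPM against 0.223 and 0.164 CPM, 5.05, SE 0.26) and KLK6 (3.74, SE 0.29) rose. Whichever library was left out, at least 9 fell and at least 4 rose. The lists of tumour subtypes did not move 1 way: of 30 classical pancreatic tumour genes tested 7 rose and 7 fell (median -0.06), and of 35 basal-like genes 4 rose and 5 fell. Among the classical genes, CLRN3, a tetraspan membrane protein, had 3.29 and 3.43 CPM against no count in NC (at least 34.7-fold higher), while CEACAM5 and CEACAM6 fell.

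Of 39 genes of the EGF family and MAPK feedback tested, 1 rose and 9 fell (median -0.18), with 5 that fell at the lowest when 1 library was left out. DUSP4, a phosphatase induced by ERK, had 167.5 and 178.1 CPM against 272.3 and 292 CPM (-0.71, SE 0.06, adjusted p = 5.62e-05). FOSL1, an AP-1 subunit, had 60.1 and 72.3 CPM against 99.4 and 119.8 CPM (-0.73, SE 0.10). Growth genes moved little. The list counts of this paragraph stand beside 4.3% of all genes that rose and 2.69% that fell. Of 68 mitotic genes 1 rose and 0 fell (median 0.07), and of 56 DNA replication genes 1 rose and 0 fell. CDKN1A, the cell cycle inhibitor p21, stood at 297.9 and 355 CPM against 179.7 and 215.9 CPM (0.72, SE 0.14, adjusted p = 0.0337), a call lost without NC replicate 1 (0.102) and without P2-a8 replicate 2 (0.119).

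Ribosome genes gave small shifts that depended on single libraries. Members past the threshold in the lists below stand beside 4.3% of all genes that rose and 2.69% that fell. Of 60 ribosome biogenesis genes, 0 rose and 7 fell, and both P2-a8 libraries lay below both NC libraries in 36, beside 22.7% of all genes. Of 76 cytosolic ribosomal protein genes, 5 rose and 0 fell, and 66 lay above both NC libraries, beside 27.7% of all genes. Their medians were -0.13 and 0.10. The ribosomal protein genes that rose made 6.58% of those tested, near the 4.3% of all genes. Without NC replicate 2 none of either list passed, and with scaling by total counts alone 1 ribosomal protein gene rose. Of 75 oxidative phosphorylation genes 1 rose and 0 fell, and of 13 mitochondrially encoded genes none passed in the main edgeR test or with DESeq2, with 2 at an unadjusted p under 0.05 and 1 past the threshold with no filter on low counts. Of 24 HOX genes tested none passed in the main edgeR test or with DESeq2, and 3 had an unadjusted p under 0.05. Of 33 NRF2 targets 6 rose and 0 fell, of which HMOX1 and FTL are also iron genes. AKR1C3, an aldo-keto reductase with close paralogs, rose by 0.50 (SE 0.07). Laminin-332, TGF-beta, YAP and Wnt lists had at most 2 members past the threshold in either direction. With no filter on low counts, 6 YAP and TEAD targets rose and 3 fell, and 6 Wnt genes fell, and without P2-a8 replicate 2, 5 YAP and TEAD targets and 4 Wnt genes fell. Of 38 mesenchymal and matrix genes 6 rose and 5 fell. CDH2, N-cadherin, rose from 1.71 and 1.78 CPM to 3.89 and 3.74 CPM (1.13, SE 0.18).

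**Figure D4:**
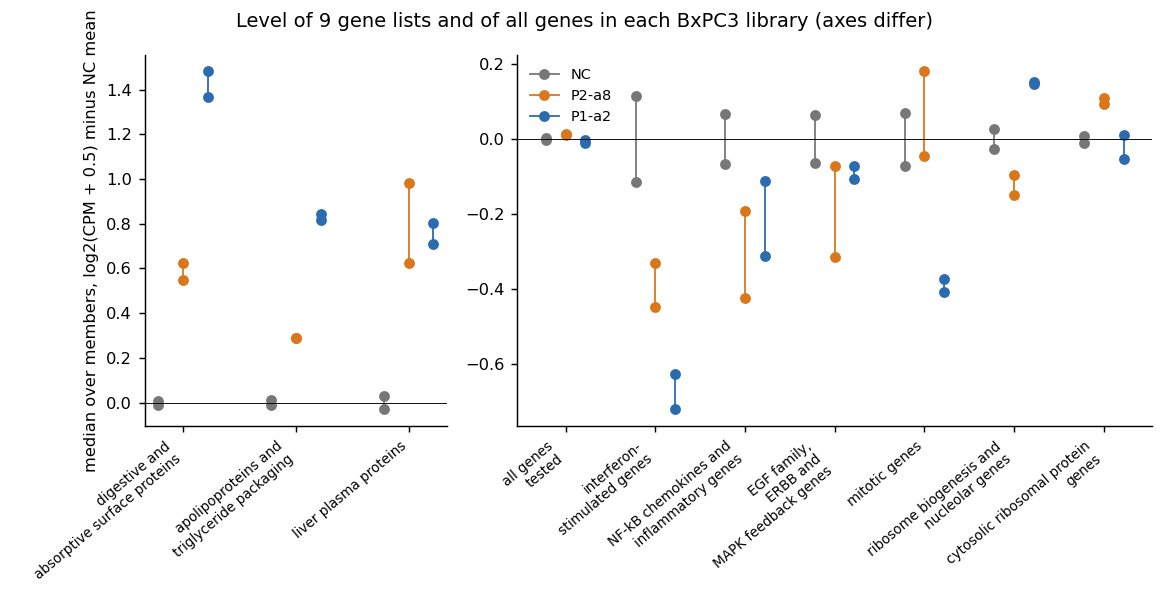
Median over members of log2(CPM + 0.5) minus the gene's NC mean (vertical axis) for 9 gene lists and for all genes, 1 point a BxPC3 library, on 2 panels with different axes. Interferon-stimulated genes lie at -0.45 and -0.33 with P2-a8 and at -0.72 and -0.63 with P1-a2, against -0.12 and 0.12 in NC.

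The isoforms were compared directly at equal doxycycline. Between P2-a8 and P1-a2, 3963 genes (22.5%) differed, with 1909 (10.8%) higher and 2054 (11.6%) lower under P2-a8. The P2-a8 libraries enter both this comparison and the one with NC, so the values are set side by side and are not independent. The largest differences included lipid, retinoid and iron genes. APOA2, the second protein of high density lipoprotein, had 0.429 and 0.582 CPM with P2-a8, 11.1 and 15.6 CPM with P1-a2 and no count in NC (P2-a8 against P1-a2 -4.72, SE 0.26, adjusted p = 5.57e-06). Against NC it was at least 5.22-fold higher with P2-a8. RBP4, the retinol carrier of plasma, had 0.772 and 0.398 CPM with P2-a8 against 10.6 and 14.5 CPM with P1-a2 (-4.40, SE 0.27), and HEPH, an iron oxidase of the enterocyte, had 0.515 and 0.888 against 10.0 and 13.5 CPM (-4.07, SE 0.25). MMP3, a matrix metalloprotease, had 3.18 and 2.97 against 36.6 and 43.4 CPM (-3.70, SE 0.13), and HHLA2 had 3.78 and 4.23 against 42.98 and 56.3 CPM (-3.64, SE 0.15). RBP4, MMP3 and HHLA2 overlap other genes.

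Intestinal and lipid genes were set beside P1-a2 in the same way. Over all genes tested, 10.8% were higher and 11.6% lower with P2-a8 than with P1-a2. Of the 34 apolipoprotein and triglyceride genes tested 0 were higher and 19 lower with P2-a8, of the 25 brush border genes 1 was higher and 14 lower, and of the 25 digestive and absorptive genes 1 was higher and 13 lower. The median level of the digestive and absorptive genes, relative to NC, was 0.55 and 0.62 with P2-a8 and 1.48 and 1.37 with P1-a2. VIL1 had 64.6 and 79.8 CPM with P1-a2, and ANPEP had 140 and 170.7 CPM, both above P2-a8. SERPINA1 went the other way, with 14.3 and 13.5 CPM under P2-a8 and 5.18 and 5.52 CPM under P1-a2 (1.37, SE 0.13, adjusted p = 6.49e-05). H19, an imprinted noncoding RNA, had 28.2 and 21.7 CPM with P2-a8 against 8.56 and 6.68 CPM with P1-a2 (1.72, SE 0.15) and 49.2 and 48.0 CPM in NC. Of USH1G, KRT4 and NGFR, given next, USH1G fell past the threshold against NC, and KRT4 and NGFR did not pass it. USH1G, a scaffold protein of hair cells, had 22.05 and 18.46 CPM in NC. Against NC it changed by -0.61 with P2-a8 (SE 0.13, adjusted p = 0.0156), or by -0.50 without NC replicate 1. KRT4 and NGFR changed against NC by -0.77 to -0.31 and by -0.60 to 0.03 over the alternative fits. Between the isoforms, USH1G had 13.1 and 13.3 CPM with P2-a8 against 5.65 and 4.33 CPM with P1-a2 (1.41, SE 0.14). KRT4, a keratin of mucosal squamous epithelium, had 190.1 and 139.3 against 61.8 and 43.7 CPM (1.65, SE 0.24, adjusted p = 0.0144), a call lost without NC replicate 1 (0.0552) and with no filter on low counts (0.0639). NGFR, the low-affinity neurotrophin receptor, had 8.95 and 13.6 against 3.04 and 4.84 CPM (1.503, SE 0.31, adjusted p = 0.0162), a call lost without P1-a2 replicate 1 (0.0860).

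Interferon and growth genes also separated the isoforms, set here beside 10.8% of all genes higher and 11.6% lower with P2-a8 than with P1-a2. Of the 57 interferon-stimulated genes, 27 were higher and 1 lower with P2-a8 than with P1-a2. IFITM1, an antiviral membrane protein with close paralogs, had 47.5 and 55.4 CPM with P2-a8, 26.1 and 24.8 CPM with P1-a2 and 94.1 and 107.4 CPM in NC. Of the 68 mitotic genes, 54 were higher and 1 lower with P2-a8 than with P1-a2. SPC24, a kinetochore subunit named here after its value was seen, had 19.9 and 19.4 CPM with P2-a8, 10.6 and 11.2 CPM with P1-a2 and 19.1 and 15.9 CPM in NC (P2-a8 against P1-a2 0.85, SE 0.11, adjusted p = 3.94e-04). Of the 60 ribosome biogenesis genes, 2 were higher and 35 lower with P2-a8, and of the 76 ribosomal protein genes 23 were higher and 0 lower. RRP12, a factor of ribosome assembly also named after its value was seen, had 42.2 and 43.1 CPM with P2-a8, 70.2 and 68.9 CPM with P1-a2 and 46.5 and 49.1 CPM in NC (-0.71, SE 0.06). In SPC24 and RRP12 the P2-a8 libraries lay near NC and the P1-a2 libraries apart.

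In Panc10.05, P2-a8 against its own control changed 7203 of 19372 genes in the joint fit (37.2%), 3561 (18.4%) higher and 3642 (18.8%) lower. The response differed between the lines for 4545 genes (23.5%). Line, doxycycline dose, control construct and the number prefix of the library titles change together here and cannot be told apart. Of the 12 largest rises of BxPC3, 11 were also higher in Panc10.05 and 0 lower, while of the 12 largest falls 3 were lower and 2 higher. Of the other falls, SCGB1A1 and IGFBP5 had no count in the 4 Panc10.05 libraries, and STC1, MUC2, SPRR2D and SLC6A14 had at most 3 counts in any of them, so those 6 could not be judged there, and the counts of rises and falls are not comparable. SLCO2B1 had 16.0 and 15.8 CPM with P2-a8 against 0.0233 and 0.0560 CPM in Panc10.05, close to its levels in BxPC3. The 11 shared rises include HNF4A, the induced gene, and genes near the floor. MUC17 reached 0.736 and 0.405 CPM with P2-a8 in Panc10.05, PRAP1 0.409 and 0.405, and ANPEP 0.286 and 0.189, far below BxPC3. METTL7B (76.8 and 72.9 CPM) and VIL1 (22.1 and 23.2 CPM) stood above their BxPC3 levels. APOA4 and PRAP1 had no count in the controls of both lines, so their difference between the lines could not be estimated. AKR7A3 rose by 3.95 (SE 0.28) in Panc10.05, and the difference between the lines was -0.44 (SE 0.43, adjusted p = 0.526). IFI27 fell in Panc10.05 as well, from 242.1 and 260.8 CPM to 69.5 and 79.8 CPM (-1.75, SE 0.15). C3 and MUC16 fell in BxPC3 and rose in Panc10.05, by 3.53 (SE 0.20) and 1.66 (SE 0.20). SERPINA1 stood at 38.0 and 39.4 CPM with P2-a8 and at 44.2 and 45.7 CPM in the Panc10.05 control (-0.22, SE 0.09, adjusted p = 0.0566), so that its control level there was far above that of BxPC3. The induced HNF4A level was also higher in Panc10.05, at 36.0 and 36.1 CPM.

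**Figure D5:**
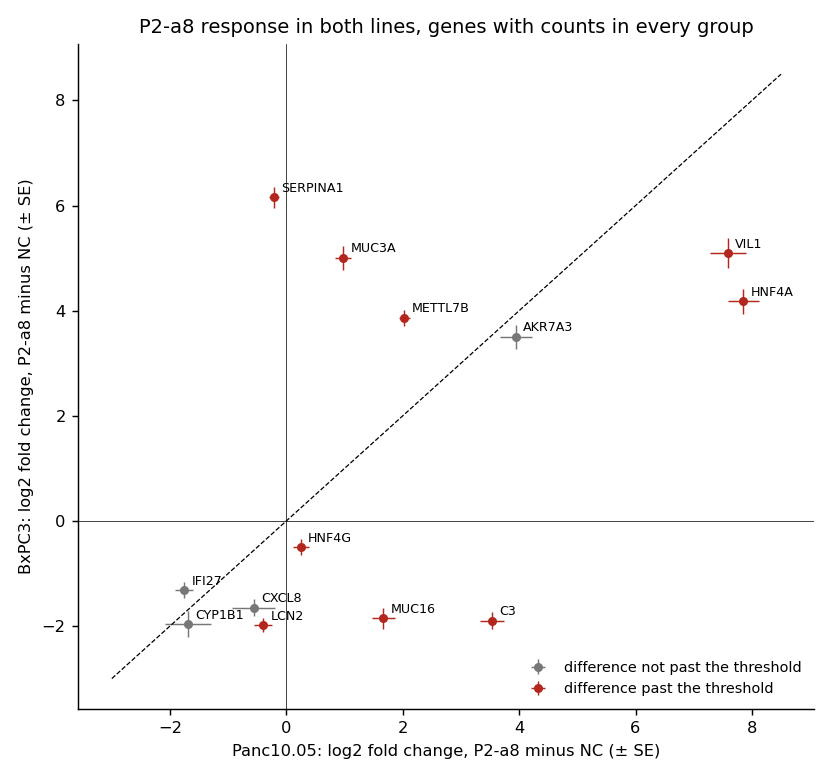
Log2 fold change of P2-a8 against NC in BxPC3 (vertical axis) against that in Panc10.05 (horizontal axis), with standard errors and a dashed line of equality, for the 13 named genes that had more than 3 counts in each group of both lines. C3 and MUC16 lie below 0 in BxPC3 and above 0 in Panc10.05.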

How the data were processed

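The authors deposited raw counts per gene, and the BxPC3 table lists 62703 identifiers. Per the submitters' processing notes, the tools were cutadapt 1.16, STAR 2.7.9a, featureCounts 1.6.3 and DESeq2 1.36.0 with the build GRCh38. The annotation and strand setting are not given in the sources used here, so reads of overlapping or antisense genes may not be separated. Per the labels' protocols, poly(A) RNA was made into directional libraries and sequenced in pairs.

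Groups came from the genotype labels. All 6 BxPC3 libraries were fitted together in edgeR 4.0.16 (R 4.3.3, limma 3.58.1): filterByExpr with a minimum count of 10, TMM scaling, then glmQLFit with robust estimation and glmQLFTest. Benjamini-Hochberg adjusted p-values under 0.05 over all genes tested pass the threshold. CPM values are TMM scaled, and SE is the absolute log2 fold change over the square root of F. Panc10.05 was tested in a joint fit of 12 libraries, with the difference of responses as an interaction contrast. A group at 0 counts was set at a floor of 3 counts per library for a lower bound; with 1 to 3 counts, a ratio has an exact 95% interval, and both cover counting error only. The script was tested on simulated data.

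Named genes are the 12 largest rises and falls past the threshold with a mean of at least 5 CPM and no overlap of groups, HNF4A, HNF4G, up to 4 members a list by size with a mean of at least 1 CPM, and the 5 largest differences from P1-a2 in each direction. PDZK1, TREH, MTTP, DGAT2, MUC1, MUC4, IFI6, OAS3, IFITM1, TNFSF10, SPC24 and RRP12 fall outside this rule and were chosen after their values were seen. The members and lists were chosen with earlier results of these data known. Gene lists come from textbook knowledge and carry no set test. Promoter sequences and element positions came from RefSeq (GRCh38.p14), matched by symbol. Replicates of a group differed beyond sampling noise (chi-square over degrees of freedom from 6.38 to 8.63), so each library counts once. Alternatives were DESeq2 1.42.0, other scalings, filters, fits and left-out libraries.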

Additional observations from a re-analysis of the deposited data

Results flagged for a closer look

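For 10 of the 25 genes named for the size of their change, with HNF4A and HNF4G, the P2-a8 response differed between BxPC3 and Panc10.05 by the interaction test of the joint edgeR fit. The line, the dose, the control construct and the number prefix of the library titles change together, and their parts cannot be told apart. The differences below are BxPC3 minus Panc10.05, on the log2 scale.

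Responses were lower in BxPC3 for C3 (-5.44, adjusted p = 4.58e-07), HNF4A (-3.68, adjusted p = 5.41e-05), MUC16 (-3.52, adjusted p = 1.54e-08) and VIL1 (-2.49, adjusted p = 0.0255). C3 had 44.5 and 39.4 CPM with P2-a8 in Panc10.05 against 4.11 and 3.08 CPM in its control, where the BxPC3 controls held 112 and 109 CPM. VIL1 reached 22.1 and 23.2 CPM in Panc10.05 from 0.163 and 0.0560 CPM. LCN2 fell more in BxPC3 (-1.58, adjusted p = 1.23e-05), and HNF4G differed by -0.74 (adjusted p = 0.0111) with a change of -0.50 in BxPC3 (adjusted p = 0.0487 in the joint fit, 0.136 in the fit of BxPC3 alone) and of 0.25 in Panc10.05 (adjusted p = 0.185).

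Responses were higher in BxPC3 for METTL7B (1.84, adjusted p = 1.18e-06), MUC3A (4.03, adjusted p = 1.02e-09), SERPINA1 (6.37, adjusted p = 8.84e-15) and ANPEP (8.06, adjusted p = 4.84e-04). The Panc10.05 controls already held 19.2 and 17.5 CPM of METTL7B and 4.39 and 3.86 CPM of MUC3A. ANPEP rests on 14 and 7 counts with P2-a8 and 3 and 2 counts in the control of Panc10.05.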

How the results depend on the processing

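The count of 1232 genes between P2-a8 and NC became 364 with a log2 fold change of at least 1 and 1982 with no filter on low counts, of which 1230 were among the 1232. With 1 library left out it ran from 495 (without NC replicate 2) to 1351 (without P1-a2 replicate 1). DESeq2 called 1150, of which 1061 were shared. Total counts alone gave 1273 and took the share that rose from 61.5% to 51.8%. Against P1-a2, 3963 genes became 526 at the same limit and ran from 2538 to 3640 with a library left out. The 4545 genes that differed between the lines became 1199 at that limit. HNF4A stayed past the threshold in every alternative run, from 3.62 to 4.83. Of 157 results for single named genes, 47 lost the threshold without NC replicate 2, 38 without NC replicate 1, 26 without P2-a8 replicate 2 and 22 without P2-a8 replicate 1, and none reversed. Reversal was counted only for results past the threshold in the main fit. The change of NGFR against NC, not past it, ran from -0.60 to 0.03, so its sign did change. A lone library left in a group is assumed to vary like the other groups.

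With the replicate block, 2886 genes differed from NC and 5992 from P1-a2. HNF4G, not past the threshold in the other fits of BxPC3 alone, passed against NC with the block (-0.48, adjusted p = 0.0358). So did more members of lists with few calls: 10 YAP and TEAD targets rose and 4 fell, 7 laminin-332 genes rose and 2 fell, 4 TGF-beta targets rose and 4 fell, 9 Wnt genes fell and 1 rose, 2 HOX genes fell and 2 mitochondrially encoded genes rose. Deviations of libraries with the same number correlated at 0.317 between NC and P2-a8, 0.316 between P1-a2 and P2-a8 and 0.174 between NC and P1-a2, over 2 numbers that the labels do not tie to a shared culture, so the main values carry no block.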
